A study of Mus musculus with 3 samples.

Results

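The locus of Gata3 was described from every HDAC3 and KLF4 peak that lay nearer to an annotated end of Gata3 than to an end of any other protein-coding gene of the mouse genome (GRCm38). Because the nearest protein-coding gene below Gata3 is far away, these peaks come from the gene, from a short stretch above it and from a long gene desert below it. The rule gave 61 of the 57936 HDAC3 peaks and 56 of the 47155 KLF4 peaks. The data are chromatin immunoprecipitation sequencing (ChIP-seq) of wild-type mouse dorsal epidermis, taken from embryos at E18.5, shortly before birth. The 3 libraries were an HDAC3 precipitation (antibody Abcam ab7030), a KLF4 precipitation (antibody R&D AF3158) and an input without antibody, 1 library each. There was no replicate of either precipitation, so no spread between samples and no test of a difference can be given. The labels do not say how many embryos were pooled, and whole epidermis holds several keratinocyte layers and other cells, which these libraries do not separate. The members were chosen by the measured positions of the peaks, so their number describes the choice and is not a finding.

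GATA3 is a zinc finger transcription factor that binds DNA at the letters GATA. In mouse skin it acts in the inner root sheath of the hair follicle and in suprabasal keratinocytes, where it is needed for a normal barrier; it is also a master regulator of T helper cells. Gene regulation at Gata3 in mouse is known to depend on enhancers that lie far from the gene, different ones in different tissues. KLF4 is a zinc finger activator and repressor of barrier genes that recognises GC-rich CACCC-type sequences, and HDAC3 is a histone deacetylase carried to chromatin by the NCoR and SMRT corepressors.

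Gata3 lies on chromosome 2 at 9857078 to 9887953 and is transcribed from the minus strand, so its 3′ end is the lower coordinate. The protein-coding neighbours are Celf2, an RNA-binding protein gene, and Taf3, a subunit gene of the general transcription factor TFIID. Their nearest annotated ends lie 2461 kb below Gata3 for Celf2 and 26.6 kb above it for Taf3. The sequence nearest to Gata3, called its territory here, ran from 8626710 to 9901252, a length of 1.27 Mb. Of this, 1230.4 kb lay below the 3′ end and 13.3 kb above the other end. The territory contains 8 annotated noncoding genes, 6 of them long noncoding RNA (lncRNA) genes and 2 pseudogenes. The longest is the lncRNA gene Gm13219, at 9352260 to 9467314 on the plus strand.

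The sequences before the starts of Gata3 and Gm13219 are shown because the overlapping HDAC3 and KLF4 peaks closest to each start are described below. They are the 250 bases before the start in RefSeq's GRCm38.p6 annotation, 5′ to 3′ on the gene's own strand. For Gata3 they cover chr2:9878601-9878850 on the minus strand, and for Gm13219 chr2:9352010-9352259 on the plus strand. Capitals mark CACCC or its reverse complement GGGTG, including matches that overlap each other.
Gata3: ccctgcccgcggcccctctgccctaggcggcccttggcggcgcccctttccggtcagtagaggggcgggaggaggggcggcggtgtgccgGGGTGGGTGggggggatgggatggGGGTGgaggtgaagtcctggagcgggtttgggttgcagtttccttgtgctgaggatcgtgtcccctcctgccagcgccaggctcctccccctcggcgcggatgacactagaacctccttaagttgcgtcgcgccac
Gm13219: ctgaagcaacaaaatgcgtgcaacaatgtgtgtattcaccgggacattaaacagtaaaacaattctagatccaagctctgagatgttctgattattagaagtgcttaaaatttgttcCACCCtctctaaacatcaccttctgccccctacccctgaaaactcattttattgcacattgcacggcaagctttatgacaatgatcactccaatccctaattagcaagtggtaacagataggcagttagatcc
The Gata3 window had 3 matches to CACCC or GGGTG and the Gm13219 window 1; 52.0% of all 32851 promoter windows of this length held at least 1. The Gata3 window had no GATA or TATC, the Gm13219 window had 1, and 53.6% of all windows held one of these. The AP-1 letters TGANTCA were in neither window and in 6.75% of all windows. G and C made up 70.0% of the Gata3 window and 40.4% of the Gm13219 window. Neither window is itself covered by a peak, and a match is a string of letters, not a binding site.

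The gene itself, 30.9 kb long, held 2 HDAC3 peaks and 1 KLF4 peak, which came to 64.8 HDAC3 and 32.4 KLF4 peaks per Mb, against 47.9 and 43.9 over the territory. With so few peaks a difference from the territory was not detectable. No HDAC3 and no KLF4 peak was centred within 1 kb of an annotated end of Gata3; 16.9% of all protein-coding genes had such an HDAC3 peak nearest to them and 20.6% such a KLF4 peak. Within 10 kb of an end there were 4 HDAC3 peaks and 1 KLF4 peak. The RefSeq start used for the sequence above, at 9878600, lies inside the annotated interval of the gene, which reaches further up. Which start the epidermis uses is not known from these data, and the absence of a peak within 1 kb holds for the ends of the annotated interval and not for this start. Upstream of this start a peak of each factor overlapped: an HDAC3 peak at 9879388 to 9879572 was centred 880 bp before it and a KLF4 peak at 9879440 to 9879624 was centred 932 bp before it. These peaks began 537 and 589 bp beyond the printed Gata3 window and their centres were 52 bp apart.

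Heights are given as the score, a tag number that the authors' peak caller assigned to each peak and that ranks peaks within 1 list. The peaks before the Gata3 start scored 35 for HDAC3 and 87 for KLF4, above 77.6% and 65.4% of their lists. They stood 5.87-fold and 7.78-fold over input. The same pair lay 1766 bp (HDAC3) and 1714 bp (KLF4) below the start of 4930412O13Rik, an lncRNA gene on the opposite strand. The 3 other HDAC3 peaks near the gene had no KLF4 peak within 5 kb. One, of score 42, was centred 1062 bp above the upper end of Gata3 and inside the lncRNA gene 9230102O04Rik, 525 bp from that gene's upper end. Another, of score 28, lay 4148 bp inside Gata3 from its 3′ end, and the last, of score 26, 1909 bp below that end.

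**Figure D1:**
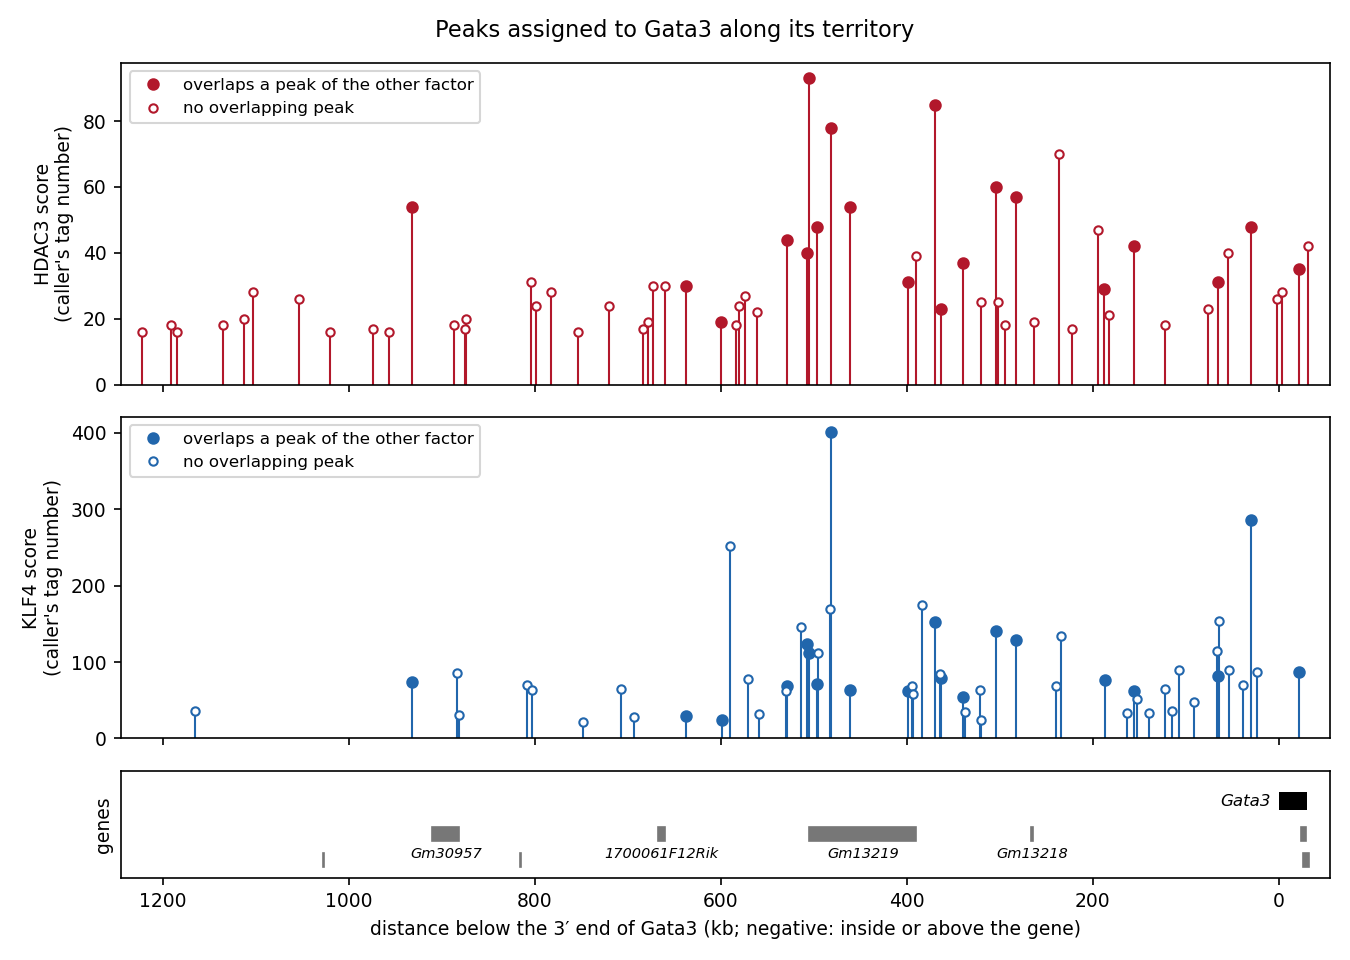
Each HDAC3 peak (top) and KLF4 peak (middle) of the Gata3 territory, by distance from the 3′ end of the gene in kb (horizontal) and the caller's score (vertical); filled points overlap a peak of the other factor, and grey bars below are noncoding genes. Of the 20 pairs 13 stand between 200 and 600 kb below the gene, and beyond 700 kb 18 of the 19 HDAC3 peaks are open.

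Peaks of both factors were found along the desert below the gene. Of the 61 HDAC3 peaks 58 (95.1%) lay below the 3′ end, and of the 56 KLF4 peaks 55 (98.2%) did, close to the 96.5% of the territory's length that this stretch makes up. In the first 100 kb below the gene there were 5 HDAC3 peaks and 8 KLF4 peaks, and 2 pairs. Between 200 and 600 kb, HDAC3 had 24 peaks and KLF4 29, and 13 of the 20 overlapping pairs lay there. The overlap share in this window was 54.2% for HDAC3 and 44.8% for KLF4, against 25.8% and 31.7% of the whole lists. The window was not set in advance, so these shares are a description with no test. KLF4 thinned out beyond 600 kb: past 1000 kb there were 8 HDAC3 peaks and 1 KLF4 peak.

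**Figure D2:**
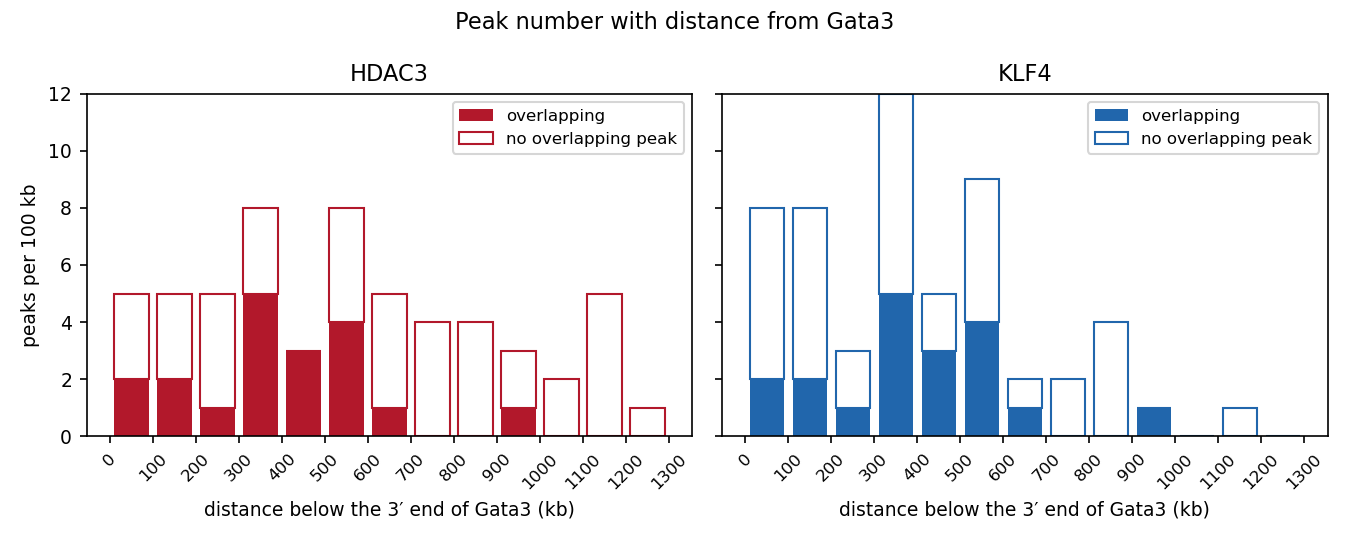
Number of HDAC3 peaks (left) and KLF4 peaks (right) in steps of 100 kb below the 3′ end of Gata3; the filled part of a bar counts peaks that overlap the other factor. The tallest bars are 8 HDAC3 peaks in each of the steps from 300 and from 500 kb and 12 KLF4 peaks in the step from 300 kb; beyond 600 kb no step holds more than 4 KLF4 peaks.

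The desert is described on both sides of 700 kb, a split that was chosen after the values were seen, so its contrasts are a description with no test. Beyond 700 kb there were 19 HDAC3 peaks (35.8 per Mb) with a median score of 18 and 8 KLF4 peaks (15.1 per Mb) with a median of 64.5. From the gene down to 700 kb below it there were 39 HDAC3 peaks (55.7 per Mb) with a median score of 30 and 47 KLF4 peaks (67.1 per Mb) with a median of 71. The KLF4 medians lay close together beside the territory's middle range of KLF4 scores, 53.5 to 112 between the quartiles. Fold over input ran the other way for HDAC3, with a median of 9.30 beyond 700 kb and 6.12 nearer the gene, while for KLF4 it was 6.41 beyond and 8.14 nearer. The HDAC3 median of 9.30 was the fold of peaks with 1 input tag. Input tags at the far HDAC3 peaks ran from 0.5, written where none was counted, to 5, and at the nearer ones from 0.5 to 13. The higher far fold thus rests on very few input tags and does not show stronger binding. Of the far HDAC3 peaks, 12 of 19 scored within 4 tags of the calling threshold of 16, against 8 of the 42 other HDAC3 peaks and 44.4% of the whole list. Of the 56 KLF4 peaks 1 was within 4 tags of the KLF4 threshold, against 6.01% of that list. Overlap with KLF4 was seen at 1 of the 19 far HDAC3 peaks and at 18 of the 39 nearer ones, against 25.8% of the whole list. Over the whole list overlapping HDAC3 peaks had a median score of 43 and lone ones 20. The part of the low far scores in this contrast was not tested. The one far pair lay 932 kb below the gene and scored 54 for HDAC3 and 74 for KLF4.

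Whether peaks of both factors lay at the same sites was asked by overlap of at least 1 bp between the fixed-width peaks. Overlap of peaks from separate precipitations does not show both factors on the same DNA or in the same cell. In the Gata3 territory 20 of 61 HDAC3 peaks (32.8%; 95% interval 21.3 to 46.0) overlapped a KLF4 peak, and 25.8% of the whole HDAC3 list did. Intervals here and below are exact Clopper-Pearson intervals for counting error alone. Of the KLF4 peaks 20 of 56 (35.7%; 23.4 to 49.6) overlapped an HDAC3 peak, and 31.7% of the whole KLF4 list did. Both intervals contain the value of the whole list, so a difference in overlap was not detectable at this number of peaks. The centres of the 20 pairs were 4 to 170 bp apart with a median of 37 bp, and 15 pairs were within 50 bp. Over all 14967 pairs of the genome the median was 31 bp. Overlapping HDAC3 peaks had a median score of 43 (range 19 to 93) and lone ones 22 (16 to 70), close to the 43 and 20 of the whole HDAC3 list. For KLF4 the medians were 77.5 (24 to 401) for overlapping and 67 (22 to 252) for lone peaks, a smaller gap than the 93 and 56 of the whole KLF4 list.

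KLF4 peaks that did not overlap HDAC3 were seldom far from it. Every KLF4 peak of the territory had an HDAC3 peak centre within 18915 bp, whereas 13.2% of all KLF4 peaks had none within 20 kb. Of the 61 HDAC3 peaks 12 (19.7%) had no KLF4 centre within 20 kb, against 33.1% of the whole list. The median distance to the other factor was 4647 bp for the HDAC3 peaks of the territory and 8279 bp for the HDAC3 list, and 1136 bp and 3439 bp for KLF4. Peaks of both factors were also denser in the territory than over all genes (densities are given below), and the part of density in these distances was not tested.

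The highest HDAC3 peak of the territory stood at the start of Gm13219. It covered 9352344 to 9352528, 505 kb below Gata3, and was centred 176 bp inside the lncRNA gene, starting 84 bp beyond the printed Gm13219 window. Its score of 93 exceeded 98.2% of the HDAC3 list, and it stood 10.20-fold over input and 14.05-fold over the surrounding region. KLF4 was centred 8 bp away, in a peak at 9352336 to 9352520 with a score of 112, 8.52-fold over input. A further pair, of score 40 for HDAC3 and 123 for KLF4, lay just before the gene, 507 kb below Gata3.

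The highest KLF4 peak lay inside Gm13219, at 9375912 to 9376096 and 481 kb below Gata3. It scored 401, above 99.3% of the KLF4 list, and stood 15.49-fold over input. The HDAC3 peak 35 bp away scored 78 and stood 4.44-fold over input, just above the 4-fold that the caller required; 13 input tags were counted there in either list. A lone KLF4 peak of score 170 accompanied this pair, 1611 bp from the HDAC3 peak. Gm13219 held 6 HDAC3 peaks, 5 of them overlapping, and 9 KLF4 peaks, 5 of them overlapping. Per Mb this came to 52.1 HDAC3 and 78.2 KLF4 peaks inside the gene, and 47.4 HDAC3 and 40.5 KLF4 peaks in the rest of the territory. Over the whole lists 25.8% of HDAC3 peaks and 31.7% of KLF4 peaks overlapped, and 86.5% of top-decile HDAC3 peaks did. Gm13219 was singled out after its values were seen. The HDAC3 peaks inside had a median score of 51 and those outside 25, while for KLF4 the medians were 71 inside and 70 outside. With so few peaks and 1 library of each factor, these differences have no test.

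Closer to Gata3, a pair 29.2 kb below its 3′ end had the next highest KLF4 score. The KLF4 peak, at 9827786 to 9827970, scored 286 and stood 23.37-fold over input. Its HDAC3 partner, centred 14 bp away, scored 48 and stood 5.63-fold over input. At 65.2 kb below the gene HDAC3 and KLF4 scored 31 and 82 in a pair, with lone KLF4 peaks of score 154 and 114 within 1 kb of it. This group of 1 HDAC3 and 3 KLF4 peaks spanned 1.42 kb.

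The second highest HDAC3 score, 85, was at 9487648 to 9487832, 369 kb below Gata3, and its KLF4 partner, 30 bp off, scored 152. The fifth, 60, belonged to a pair 304 kb below the gene whose KLF4 peak scored 141. At 283 kb the pair with the closest centres, 4 bp apart, scored 57 for HDAC3 and 129 for KLF4. Over the 20 pairs the HDAC3 and KLF4 scores had a Spearman correlation of 0.604 and a Pearson correlation of 0.538, against 0.718 and 0.679 over the 14967 pairs of the whole list. The remaining pairs were lower. HDAC3 and KLF4 scored 48 and 71 at 497 kb, 54 and 64 at 462 kb and 31 and 62 at 399 kb below Gata3, all inside Gm13219. Between Gm13219 and the gene they scored 23 and 79 at 363 kb, 37 and 54 at 339 kb, 29 and 76 at 187 kb and 42 and 62 at 155 kb. Beyond Gm13219 they scored 44 and 68 at 528 kb, 19 and 24 at 599 kb and 30 and 29 at 637 kb, the last at 17.62-fold over 1 input tag for HDAC3. The correlations describe 20 sites read from the same 2 precipitations and the same input, and are not tests.

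Some peaks missed an overlap narrowly. Of the HDAC3 peaks 3 (4.92%) had a KLF4 centre 185 to 1000 bp away, against 4.69% of the whole list. They lay 54.0 kb (score 40), 122 kb (18) and 320.0 kb (25) below Gata3, with KLF4 peaks of score 90, 65 and 24. Of the KLF4 peaks 6 (10.7%) had an HDAC3 centre in that range, against 6.70% of the whole list. The highest fold over input of any KLF4 peak in the territory, 39.36, belonged to a lone peak of score 87 that lay 23.4 kb below the gene and had 1 input tag.

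Of the top score decile, 1 of the 8 HDAC3 peaks and 2 of the 4 KLF4 peaks of the territory overlapped no peak of the other factor. Over the whole lists, 86.5% of top-decile HDAC3 peaks and 68.4% of top-decile KLF4 peaks overlapped one. The one HDAC3 peak of the top score decile without an overlapping KLF4 peak scored 70, at 9620670 to 9620854, 236 kb below Gata3. Its nearest KLF4 peak, of score 134, was centred 1753 bp away, and it stood 4.32-fold over 12 input tags. KLF4 had 2 such peaks. One scored 252 at 9266883 to 9267067, 590.1 kb below the gene; it was 25.06-fold over input and 53.83-fold over its surroundings, the highest of the territory on that measure. The nearest HDAC3 peak, 6866 bp away, scored 18. The other scored 175 at 9472956 to 9473140, 384 kb below the gene and 6263 bp from the nearest HDAC3 peak.

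The highest fold over input of any HDAC3 peak in the territory was 26.4, and among those of the top score decile it was 10.2. In the top score decile of its list, HDAC3 had 8 peaks in the territory (13.1% of 61; ties put the top decile at 10.2% of the whole list), and 7 of these overlapped KLF4, against 86.5% of all top-decile HDAC3 peaks. Of those 8 peaks, 1 stood at least 8-fold over input (95% interval 0.316 to 52.7%), and of all top-decile HDAC3 peaks 52.4% did, a value just inside the interval. A difference from the list was therefore not detectable with 8 peaks. Their median was 5.97-fold over input against 8.32-fold for the top decile of the list. Input tags at these 8 peaks ranged from 5 to 13 with a median of 6, and the median of the list's top decile was also 6. KLF4 had 4 top-decile peaks (7.14% of 56), with a median of 19.4-fold over input. Of these, 2 overlapped HDAC3, against 68.4% of the top decile of the list, and all 4 passed 8-fold, as did 97.7% of that decile. In the whole territory 22 HDAC3 peaks (36.1%; 24.2 to 49.4) and 27 KLF4 peaks (48.2%; 34.7 to 62.0) were at least 8-fold over input, against 41.7% and 54.4% of their lists. The input library would hold 2.57 tags per peak width if evenly spread, so a fold over so few tags is imprecise for a single peak.

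**Figure D3:**
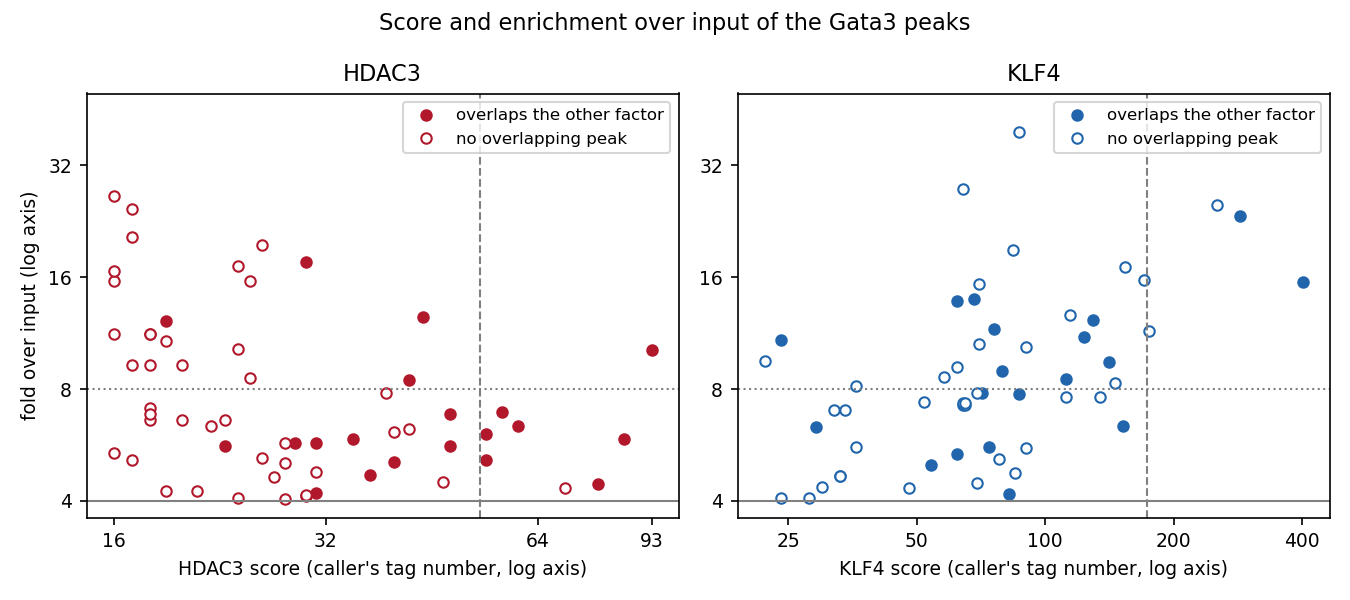
Score (horizontal, log axis) and fold over input (vertical, log axis) of the HDAC3 peaks (left) and KLF4 peaks (right) of the Gata3 territory; filled points overlap the other factor, the dashed line marks the top score decile of the list, the dotted line 8-fold and the solid line the required 4-fold. Right of the dashed line 1 of 8 HDAC3 peaks lies above 8-fold, and all 4 KLF4 peaks do.

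The peaks were spread as many small groups rather than 1 block. Joining peaks of either list whose neighbouring centres were at most 5 kb apart gave 67 groups from 117 peaks. Single peaks made up 38 of them, and 5 groups had 4 or 5 peaks, 22 peaks in all. One group of 5 peaks lay 363 to 369 kb below Gata3 and held 2 pairs; the other lay 390.3 to 399 kb below and held 1.

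At the limits of the territory the spacing of peaks was wide on the Celf2 side and, for KLF4, on the Taf3 side. On the Celf2 side the outermost HDAC3 peak inside scored 16 and was 8.29 kb from the midpoint, and the first one outside scored 16 and was 80.9 kb from it. The outermost KLF4 peak inside scored 36 at 64.7 kb from the midpoint, and the next one outside, of score 46, was 1466 kb away and inside Celf2. On the Taf3 side the HDAC3 peak just inside scored 42 at 12.2 kb from the midpoint and the one just outside scored 18 at 9.42 kb, so the gap of 21.7 kb between them was about the territory's mean spacing of 1 HDAC3 peak in 20.9 kb. The KLF4 peak just inside was that before the Gata3 start (87), and the one outside, of score 129, was 236 kb beyond the limit and nearest to Itih2.

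Among 21887 protein-coding genes Gata3 ranked 4th by HDAC3 peaks, 3rd by KLF4 peaks and 6th by overlapping pairs; 64.8% of these genes were nearest to at least 1 HDAC3 peak, 59.2% to a KLF4 peak and 33.0% to a pair. Longer territories collect more peaks, and that of Gata3 was the 214th longest. Per Mb of territory it held 47.9 HDAC3 peaks, 43.9 KLF4 peaks and 15.7 pairs, against 21.6, 17.6 and 5.57 over all genes. In 336 genes with a territory of at least 1 Mb the medians were 4.63 HDAC3 peaks, 1.81 KLF4 peaks and 0 pairs per Mb. Among those 336 genes Gata3 ranked 4th in HDAC3 density, 3rd in KLF4 density and 2nd in pair density. The first place in pair density was that of Rora, a nuclear receptor gene, with 15.9 per Mb. These ranks describe the measure that chose the members and carry no test.

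**Figure D4:**
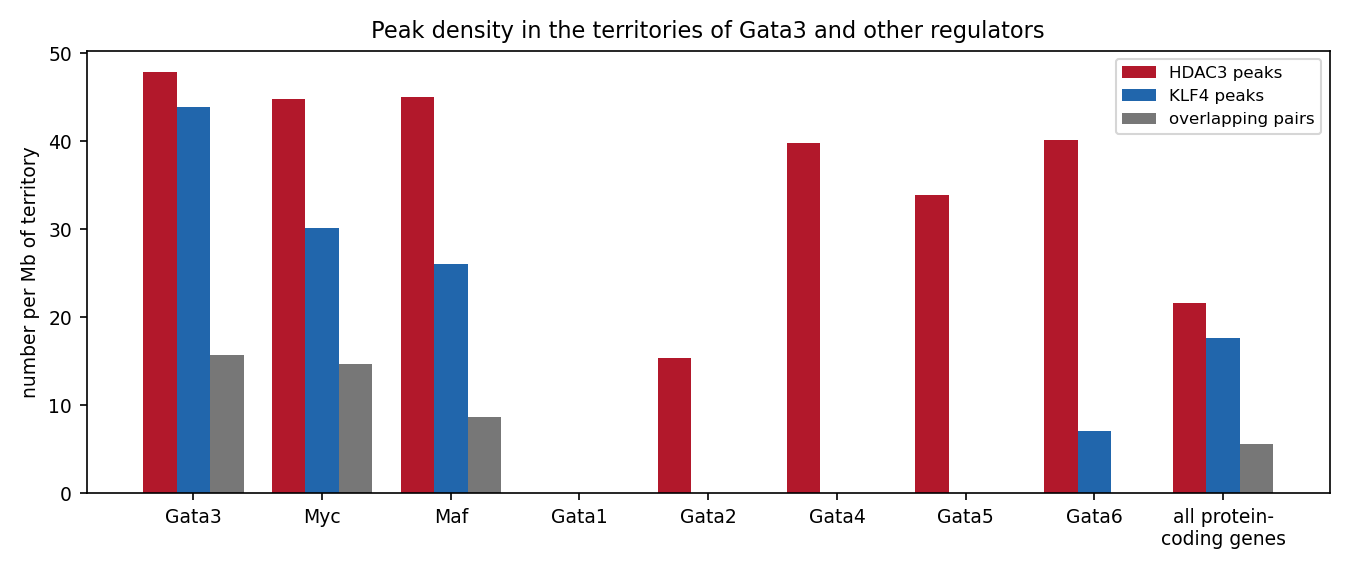
HDAC3 peaks, KLF4 peaks and overlapping pairs per Mb of territory for Gata3, Myc, Maf and the other GATA genes, with all protein-coding genes at the right. Gata3 stands at 47.9, 43.9 and 15.7 and Myc at 44.8, 30.1 and 14.7. None of the other GATA genes has a pair, and 33.0% of all protein-coding genes are nearest to a pair.

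The other GATA genes had HDAC3 peaks at densities between those of all genes and of Gata3, apart from Gata1 and Gata2, but few KLF4 peaks and no pair. Of all protein-coding genes 59.2% were nearest to a KLF4 peak and 33.0% to a pair, so most genes have no pair. The territories of the other GATA genes, 36.8 to 424 kb, were also shorter than the 1.27 Mb of Gata3. The part of territory length in these counts was not tested. Gata6, whose product acts in endoderm and in the upper hair follicle and sebaceous duct of mouse skin, had 17 HDAC3 peaks and 3 KLF4 peaks in a territory of 424 kb, with no pair, and its highest HDAC3 score was 25. Gata4, a heart and endoderm factor gene, had 5 HDAC3 peaks in 126 kb (39.8 per Mb), Gata5 had 3 in 88.4 kb (33.9 per Mb) and the blood stem cell factor gene Gata2 had 1 in 65.1 kb (15.4 per Mb), all without KLF4. These HDAC3 peaks scored 16 to 21 at Gata4, 17 to 18 at Gata5 and 17 at Gata2, near the calling threshold of 16. None reached the median of the HDAC3 list, 22, which 3 of 17 peaks reached at Gata6 and 40 of 61 at Gata3. No peak of either factor was assigned to Gata1, the erythroid member, in a territory of 36.8 kb. HDAC3 density was 47.9 per Mb at Gata3 and 40.1 at Gata6, while KLF4 density was 43.9 per Mb at Gata3 and 7.08 at Gata6.

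The genes most like Gata3 were found over 4 values of the 2 peak lists and the gene table: the numbers of HDAC3 peaks, KLF4 peaks and pairs and the length of the territory, each on a log2 scale and divided by its SD over 21836 genes. The nearest was Myc, the growth regulator, at a distance of 0.35, with 64 HDAC3 peaks, 43 KLF4 peaks and 21 pairs in 1.43 Mb. Rora followed at 0.44, with 47 HDAC3 peaks, 55 KLF4 peaks and 17 pairs. Epha4, an ephrin receptor gene, was at 0.45 (73, 58 and 16), Cited2, a transcriptional coregulator gene, at 0.50 (44, 45 and 21), and Adgrl2, an adhesion receptor gene, at 0.55 (66, 50 and 18). The share of KLF4 peaks that overlapped HDAC3 was 35.7% (23.4 to 49.6) at Gata3 and 48.8% (33.3 to 64.5) at Myc, and the share of HDAC3 peaks that overlapped KLF4 was 32.8% at both. These shares are ratios of counts that were used to find Myc, so likeness in them follows in part from that choice.

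Set beside 30 other regulators of the epidermis, Gata3 had the longest territory, the most HDAC3 peaks and as many KLF4 peaks as Klf4 itself, with 56 each. Per Mb it stood low among these 31 genes, 23rd for HDAC3 (47.9, against a median of 64.3 for the other 30), 23rd for KLF4 (43.9, against 72.7) and 24th for pairs (15.7, against 33.3). Long territories had lower densities in general. All genes together had 21.6 HDAC3 and 17.6 KLF4 peaks per Mb, and genes with a territory of at least 1 Mb had 7.66 and 4.06. The part of territory length in the low ranks was not tested. The highest HDAC3 and pair densities in the list were those of Zfp750, a zinc finger gene of terminal differentiation, with 127 HDAC3 peaks and 104 pairs per Mb in a territory of 0.0863 Mb. Klf4 had 53 HDAC3 peaks and 28 pairs in a territory of 0.677 Mb, which came to 78.3 HDAC3 peaks, 82.8 KLF4 peaks and 41.4 pairs per Mb. Prdm1, a repressor gene of terminal differentiation, had 28 HDAC3 peaks, 29 KLF4 peaks and 17 pairs (42.8 per Mb). Trp63, the master regulator gene of stratified epithelia, had 19 HDAC3 peaks, 15 KLF4 peaks and 5 pairs (13.4 per Mb). All 30 genes had at least 1 peak of each factor and 29 had a pair. Among protein-coding genes in general these shares were 64.8% (HDAC3), 59.2% (KLF4) and 33.0% (pair). The medians were 9.50 HDAC3 peaks, 12 KLF4 peaks and 4.50 pairs, against 1, 1 and 0 over all protein-coding genes. The 30 genes were picked when earlier results from these data were known, so counts for this list describe the choice and carry no test. A peak within 1 kb of an end was found at 11 of the 30 genes for HDAC3 and 11 for KLF4, against 16.9% and 20.6% of all genes. Gata3 was not among the genes with a peak at an end of the annotated interval; the pair before its RefSeq start lies further than 1 kb from both ends.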

How the data were processed

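The submitters' processing notes name bcl2fastq, STAR and HOMER and the build GRCm38.p5, without versions. Per the file headers, HOMER called fixed-width peaks in factor style in each precipitation alone, against the one input. Required were 4-fold over input and over the local 10 kb, with a caller p-value of 0.0001 and a false discovery rate of 0.001. Library sizes per the file headers were 56787485 tags (HDAC3) and 61432711 (KLF4). The deposited tag signal is scaled to 10000000 tags; the deposited score ranks peaks within a list, and the deposited folds are ratios over input and over the local region. The deposited p-values and the focus ratio, a fraction, were not used.

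Centres were assigned to the nearest end of a protein-coding gene in RefSeq's GRCm38.p6 table (Python 3.11.15, pandas 2.3.3, SciPy 1.17.1). Patch releases keep primary coordinates. That table has no strand or exons; strand came from the RefSeq promoter table. Peaks overlapped when centres were at most 184 bp apart. Both functions recovered all planted positions in simulated data. Named were the 5 highest peaks of each list, those within 10 kb of the gene, lone top-decile peaks, the outermost ones, the bounding genes, the GATA family, Myc, Maf and the 5 most similar genes; other peaks and genes were chosen after their values were seen. The members and lists were chosen with earlier results of these data known. The sequence under the peaks was not used here. Intervals are over numbers of peaks and cover counting error only. Peaks of 1 locus in 1 library per antibody are not replicates, and PCR copies among the tags are not independent molecules. With 1 library per antibody, p-values were not computed.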

Additional observations from a re-analysis of the deposited data

How the results depend on the processing

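The number of peaks depended on the assignment and on the calling limit, for both factors. With noncoding genes as candidates too, 7 HDAC3 and 11 KLF4 peaks were nearest to Gata3 and its ranks were 378 and 62 in place of 4 and 3; by construction, desert peaks then go to the lncRNA genes and pseudogenes. Within 500 kb of the gene there were 29 and 37 peaks, at or above the median score of the list 40 and 34, and at 8-fold over input 22 and 27 (ranks 9 and 7). Overlap was 13.6% for HDAC3 and 11.1% for KLF4 with 8-fold required in both lists (3 pairs), against 21.6% and 20.4% of the whole lists, and the KLF4 share was 18.2% with noncoding genes as candidates; the cause was not tested. With noncoding genes as candidates the HDAC3 share was 28.6%. Centres within 50 bp gave 24.6% for HDAC3 and 26.8% for KLF4, against 18.0% and 22.1% of the whole lists. An overlap of at least 50% of a peak width gave 27.9% and 30.4%, against 22.9% and 28.1%. Centres within 1 kb gave 37.7% and 46.4%, against 30.5% and 38.4%. With both lists kept to scores at or above their median, the territory was level with the list for HDAC3 (35.0%, against 34.9%) and below it for KLF4 (41.2%, against 42.9%). Peaks near the gene ends numbered 3 HDAC3 within 5 kb, and 4 HDAC3 and 1 KLF4 within 10 kb, where none lay within 1 kb. Joining peaks across the wider planned gap gave 41 groups in place of 67, and across at most 2 kb 81. No paired analysis was possible because each antibody had 1 library. That single library, and the few input tags per peak, limit all values.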
